A study of Danio rerio with 6 samples.

Results

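The 7 genes of the Sm ring, snrpb, snrpd1, snrpd2, snrpd3, snrpe, snrpf and snrpg, were followed in RNA-seq of mettl16-/- zebrafish embryos and their siblings. They were chosen by name, and all 7 were found among the 26375 gene identifiers of the count tables. The libraries came from embryos of the AB strain at 3 days postfertilization (dpf), from tails that included the caudal hematopoietic tissue, a site where blood stem and progenitor cells expand. The 3 sibling libraries carry the label mettl16+/+ and had no treatment, and the 3 mettl16-/- libraries, labelled as gene knockout, came from a stable mutant line made with CRISPR/Cas9. The labels call the tissue the trunk region. The study calls the controls siblings, and whether heterozygous embryos were among them is not settled by the sources used here. Tails were pooled within a library after genotyping on the heads, so each library averages many embryos and many tissues, and fewer cells that express a gene cannot be told apart from less of its RNA per cell. Nothing in the labels says whether replicates came from separate clutches, so the p-values measure the spread between these libraries.

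Sm proteins are small proteins that share 1 fold and close into a ring of 7 different subunits around a uridine-rich site in the snRNAs of the spliceosome. This Sm core is carried by the U1, U2, U4 and U5 snRNAs, while U6 snRNA, an RNA that METTL16 methylates, carries a ring of related LSm proteins. Before the ring closes, the subunits wait as D1-D2, E-F-G and D3-B, held by the chaperone pICln, and the SMN complex then loads them onto the snRNA in the cytoplasm. The methyltransferase PRMT5 modifies arginines in the tails of B, D1 and D3. The particle receives a trimethylated cap and returns to the nucleus.

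Each library held between 16239791 and 18541402 counts, and the ring genes together took 4144, 4799 and 4706 counts in sibling replicates 1, 2 and 3 and 5553, 6561 and 7099 counts in mettl16-/- replicates 1, 2 and 3. Reads on mettl16 itself (ENSDARG00000055838) numbered 104, 120 and 117 in siblings and 64, 59 and 86 in mettl16-/- embryos. They were fewer in every mettl16-/- library, and the log2 difference of -0.63, with a standard error of 0.211, did not pass the test (edgeR, adjusted p = 1). Its 95% interval was -1.105 to -0.1644, with an unadjusted p of 0.0131 in edgeR. With replicate number as a blocking term the adjusted p from edgeR was 0.0683. The study reports a genomic deletion in mettl16 of its mutants, read by Sanger sequencing. It also measured the mRNA and protein of mettl16 in mutants at 3 dpf, apart from these libraries. Its legend marks the mRNA difference as significant after adjustment, without giving the direction in words. Levels are given as CPM, counts relative to the size of the library, after TMM scaling, which assumes that most genes keep the same level between libraries. CPM is not divided by transcript length, so the CPM of different genes are not ranked here. Markers of skeletal muscle, epidermis, neurons, erythroid cells, liver, endothelium and blood stem and progenitor cells were all detected, and no matched marker was at 0 in all libraries. The summed CPM of the 4 matched exocrine pancreas markers was 34.5 to 104.5 in siblings and 16.0 to 25.2 in mettl16-/- embryos. That of 2 matched myeloid markers was 63.3 to 68.7 and 59.5 to 63.1. Both sums lay lower in every mettl16-/- library. The summed CPM of 4 liver markers overlapped, at 1435 to 1994 in siblings and 1319 to 1646 in mettl16-/- embryos. All 4 liver markers were fitted lower, with a median log2 fold change of -0.23. With the replicate block in edgeR, 3 of them passed, as did 2 of the exocrine pancreas markers. All 3 matched skeletal muscle markers and all 4 matched erythroid markers were fitted higher, and 1 of each list passed with the block. All 4 tested blood stem and progenitor markers were fitted lower, with a median log2 fold change of -0.10. Of them 1 had an unadjusted p under 0.05 in edgeR, and 0 passed with the block. The summed CPM of the 5 matched markers overlapped, at 38.3 to 43.43 in siblings and 36.46 to 38.85 in mettl16-/- embryos. Without the block 0 markers of these lists passed, where 21 of all genes tested were called higher and 2 lower. Over all 18487 genes tested, 73 were called lower and 120 higher with the block. The part of these markers in the results below was not tested. The 8 markers of cycling cells overlapped between the groups, at 665 to 683 CPM in siblings and 624 to 698 CPM in mettl16-/- embryos.

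To ask how the loss of mettl16 bears on the ring genes, mettl16-/- embryos were compared with siblings. All 7 genes had a higher fitted level in mettl16-/- embryos, but by unequal amounts. For snrpd2, snrpe and snrpd3 the level rose 1.85-fold, 1.89-fold and 1.86-fold, and all 3 passed an adjusted p-value of 0.05 over the 18487 genes tested (quasi-likelihood test of edgeR, p-values adjusted by Benjamini-Hochberg). By this rule 21 of all genes were higher, or 0.114%. The fitted folds of snrpf and snrpg were 1.94 and 1.60 without passing, and those of snrpb and snrpd1 were 1.27 and 1.20. The groups were fully separated in 5 of the 7 genes, with the lowest mettl16-/- library above the highest sibling library, a pattern seen in 3.46% of all genes tested. The log2 fold changes of all 7 ring genes had a median of 0.88, against -0.0032 over all genes. These counts describe a set of genes that was chosen with results of these data known.

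Libraries that share a replicate number deviated together from their group means, so the comparison was also made with replicate number as a blocking term. There snrpg, snrpf and snrpb also passed, which makes 6 of the 7 genes, where 0.649% of all genes were higher with an adjusted p-value under 0.05. With the block the adjusted p-values from edgeR were 9.45e-10 for snrpd2, 1.66e-08 for snrpe, 6.22e-07 for snrpd3, 7.22e-06 for snrpg, 0.000389 for snrpf and 0.000296 for snrpb. That of snrpd1 was 0.139 in edgeR with the block. The block leaves little room to measure the spread of a single gene, so these p-values lean mostly on the spread shared across genes. The labels number the replicates but do not say that same-numbered libraries belong together.

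**Figure D1:**
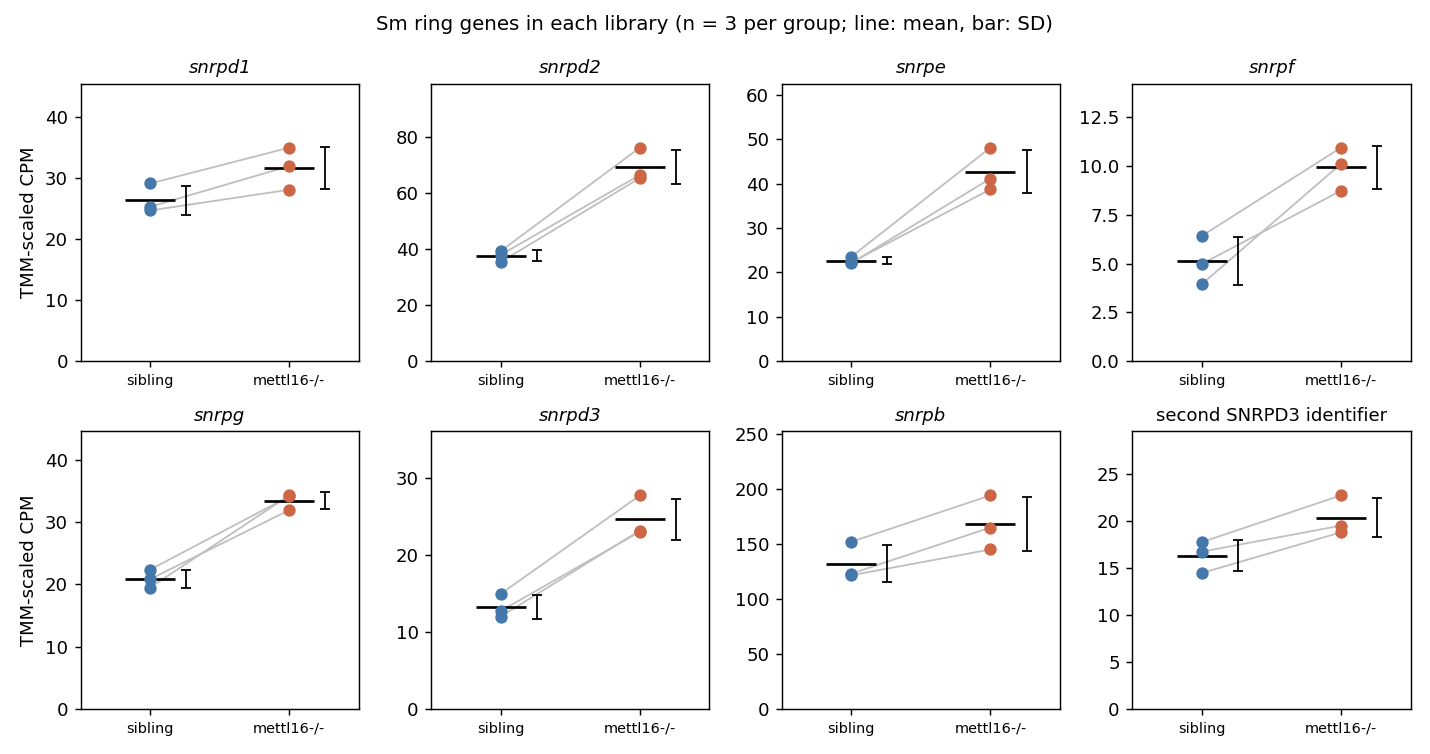
TMM-scaled CPM of the 7 Sm ring genes and of the second identifier listed as SNRPD3 in each library, with siblings on the left and mettl16-/- embryos on the right of each panel (points: libraries; short line: mean; bar: SD, n = 3; grey lines join libraries of the same replicate number). The groups do not overlap for snrpd2, snrpe, snrpf, snrpg and snrpd3, nor for the second SNRPD3 identifier, while for snrpd1 and snrpb the lowest mettl16-/- library lies within the sibling range.

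Of the D1-D2 pair, snrpd2 passed the test and snrpd1 did not. The gene snrpd2 (ENSDARG00000040440), which encodes SmD2, had 35.4, 37.9 and 39.2 CPM in sibling replicates 1, 2 and 3, from 600, 737 and 655 counts. In mettl16-/- replicates 1, 2 and 3 it had 65.3, 66.4 and 76.1 CPM, from 1043, 1192 and 1271 counts. The groups were far apart, with the lowest mettl16-/- library well above the highest sibling library. Mean levels of 37.5 ± 1.97 CPM (siblings) and 69.2 ± 5.97 CPM (mettl16-/-; SD, n = 3) differed by 0.88 on the log2 scale, with a standard error of 0.102 and an adjusted p of 0.0140 from edgeR. Its p-value was the 5th smallest among all genes tested. The partner gene snrpd1 (ENSDARG00000011648), which encodes SmD1, a subunit with an arginine-rich tail, had 24.6, 25.2 and 29.1 CPM in siblings. Its mettl16-/- libraries had 28.0, 31.9 and 34.9 CPM. Sibling replicate 3 lay above mettl16-/- replicate 1, so the groups overlapped. The log2 fold change of snrpd1 was 0.27, with a 95% interval from -0.0026 to 0.53 (edgeR, adjusted p = 1), so a rise of up to 1.45-fold stays within the interval. Each mettl16-/- library was above the sibling library of the same number, by 0.19, 0.34 and 0.27 on the log2 scale.

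The E-F-G group lies next to SmD2 in the ring, and its 3 genes had non-overlapping groups. The gene snrpe (ENSDARG00000033175), which encodes SmE, had 22.1, 22.3 and 23.5 CPM in siblings, an SD of 3.48% of the mean. It had 41.2, 38.7 and 48.1 CPM in mettl16-/- embryos, from 658, 696 and 804 counts. The fitted difference was 0.92 on the log2 scale, with a standard error of 0.113 (edgeR, adjusted p = 0.0174). The gene snrpg (ENSDARG00000099667), which encodes SmG, had 22.3, 20.8 and 19.5 CPM in siblings and 34.1, 31.9 and 34.2 CPM in mettl16-/- embryos. The highest sibling library lay well below the lowest mettl16-/- library. Its log2 fold change of 0.68 (standard error 0.105) came just short of the threshold (edgeR, adjusted p = 0.0551), with the 24th smallest p-value of all genes tested, 1 place behind snrpd3.

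The gene snrpf (ENSDARG00000105037), which encodes SmF, had the fewest reads of the 7 and the widest interval. It had 109, 97 and 66 counts in siblings, or 6.42, 4.99 and 3.95 CPM, and 175, 157 and 169 counts in mettl16-/- embryos, or 10.9, 8.74 and 10.1 CPM. The lowest mettl16-/- library was still above the highest sibling library. The 66 counts of sibling replicate 3 have a 95% exact Poisson interval of 51.0 to 84.0, which covers counting error only. The SD in siblings was 24.2% of the mean, where counting alone gives 10.5%. The log2 fold change was 0.95, with a 95% interval from 0.50 to 1.41 (edgeR, adjusted p = 0.363), so the fitted change was the largest of the 7 while its precision was the lowest.

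Of the D3-B pair, snrpd3 passed the test without the block and snrpb only with it. The gene snrpd3 (ENSDARG00000013800), which encodes SmD3, had 12.02, 12.75 and 14.97 CPM in siblings, from 204, 248 and 250 counts. It had 23.2, 23.1 and 27.8 CPM in mettl16-/- embryos, from 371, 414 and 464 counts, all above the sibling libraries. The level thus rose by 0.90 on the log2 scale, with a standard error of 0.136 (edgeR, adjusted p = 0.0472). The gene snrpb (ENSDARG00000011125), which encodes SmB and had between 2059 and 3236 counts in a library, had 121.3, 122.8 and 151.7 CPM in siblings and 144.7, 164.6 and 193.8 CPM in mettl16-/- embryos. Here sibling replicate 3 was above mettl16-/- replicate 1, and the groups overlapped. The fitted log2 difference was 0.35, with a standard error of 0.131 (edgeR, adjusted p = 1), with a 95% interval from 0.055 to 0.64. Within same-numbered libraries snrpb was higher in 3 of 3, by 0.25, 0.42 and 0.35 on the log2 scale, and with the replicate block the standard error fell to 0.0536.

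A further identifier, ENSDARG00000076283, is also listed as SNRPD3 in the table of gene names. The identifier above was taken as the member because the study's table of differential expression names it snrpd3. That choice was thus not independent of the change in its level. The same table also names snrpd2, snrpe, snrpf and snrpg, but not snrpb or snrpd1. It comes from the RNA-seq of the same study, so it is not independent of the calls made here. The further identifier had 14.4, 16.7 and 17.7 CPM in siblings and 18.8, 19.5 and 22.7 CPM in mettl16-/- embryos. The groups did not overlap, but the distance between them was small. The fitted log2 difference was 0.32, with a standard error of 0.133 (edgeR, adjusted p = 1, and 0.147 with the block). How reads that fit both genes were counted is not given in the sources used here, so the split between them is uncertain. Summed as 1 gene, a choice made after seeing the data, they had a log2 fold change of 0.61 (edgeR, adjusted p = 0.222), which did not pass.

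The calls of the 3 genes that passed without the block depended on single libraries, while their folds kept their direction. The log2 fold change stayed between 0.81 and 0.93 for snrpd2, between 0.82 and 0.98 for snrpe and between 0.80 and 0.995 for snrpd3 when each library was left out in turn. The adjusted p-value of snrpd2 from edgeR rose to 0.132 without sibling replicate 2, 0.0525 without sibling replicate 3, 0.115 without mettl16-/- replicate 2 and 0.0737 without mettl16-/- replicate 3. That of snrpe was under 0.05 only without mettl16-/- replicate 1, and was otherwise between 0.0555 and 0.146. That of snrpd3 was 0.0596 or more without any one of the 6 libraries. These fits leave 1 library without its same-numbered partner. When both libraries of a number were left out and the block was kept, a choice made after seeing the data, 6, 6 and 5 of the 7 genes passed without replicates 1, 2 and 3. The share of all tested genes that were called higher in these fits was 0.766%, 0.387% and 0.353%. Few libraries remain in each such fit, so its p-values lean mostly on the spread shared across genes. In those fits snrpd2, snrpe, snrpd3, snrpg and snrpb passed each time, with adjusted p-values of up to 0.0432 from edgeR, and snrpf did not pass without replicate 3 (edgeR, adjusted p = 0.0658).

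**Figure D2:**
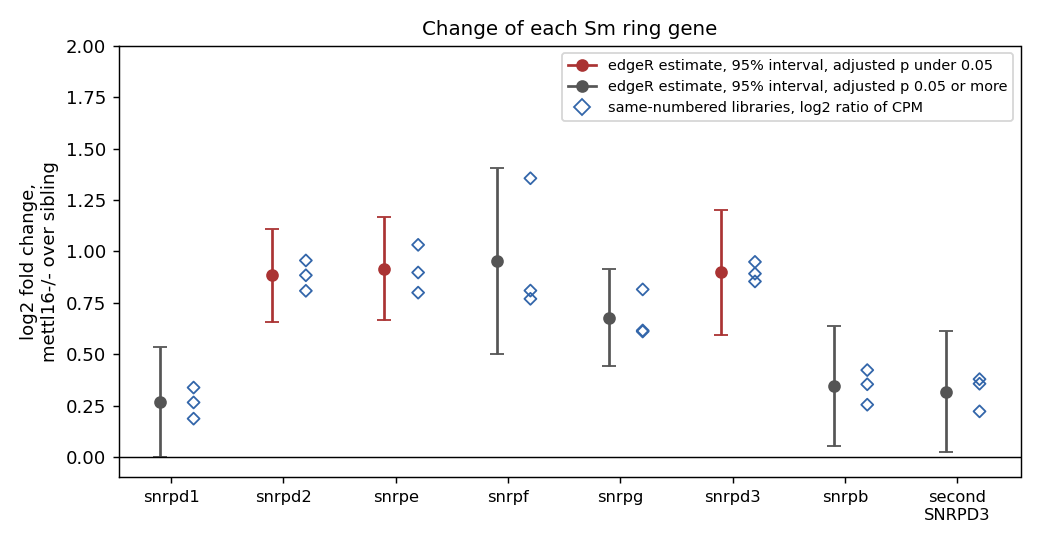
Log2 fold change, mettl16-/- over sibling, of the Sm ring genes and of the second SNRPD3 identifier (circles: edgeR estimate with its 95% interval, red where the adjusted p-value is under 0.05; diamonds: log2 ratio of CPM between libraries of the same replicate number). All diamonds lie above 0, between 0.61 and 1.36 for snrpd2, snrpe, snrpf, snrpg and snrpd3 and between 0.19 and 0.42 for snrpd1, snrpb and the second identifier.

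Since the ring takes 1 copy of each subunit, the ratio of genes whose proteins meet in the same subcomplex was compared within each library. Such a ratio changes with neither library size nor gene length between the groups. It is a ratio of RNA, and no Sm protein was measured here, so the ratio of the proteins is not known. The log2 ratio of snrpd2 to snrpd1 was 0.5215, 0.5859 and 0.4335 in siblings and 1.219, 1.057 and 1.124 in mettl16-/- embryos. The ratio was thus higher in every mettl16-/- library, by 0.62 on average. The log2 ratio of snrpb to snrpd3 went the other way, from 3.34, 3.27 and 3.34 in siblings to 2.64, 2.84 and 2.80 in mettl16-/- embryos, a mean difference of -0.55. Both ratios separated the groups fully, with p = 0.10 in a two-sided exact permutation test, the smallest p that 3 libraries against 3 allow, and an adjusted p of 0.25 over the 5 ratios compared, so this test cannot place either under 0.05 at this group size. With both SNRPD3 identifiers summed, a choice made after seeing the data and not tested, the log2 ratio of snrpb to snrpd3 was 2.197, 2.059 and 2.213 in siblings and 1.785, 1.952 and 1.941 in mettl16-/- embryos. The groups still did not overlap, but the mean difference was -0.26.

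Within E-F-G the groups overlapped. The mean difference of the log2 ratio was 0.069 for snrpf to snrpe, -0.23 for snrpg to snrpe and -0.30 for snrpg to snrpf (two-sided exact permutation tests, p = 0.90, 0.20 and 0.20, adjusted p = 0.90, 0.25 and 0.25). In each same-numbered pair the log2 ratio of snrpg to snrpe was lower in the mettl16-/- library, with differences of -0.29, -0.18 and -0.22. Those of snrpg to snrpf were -0.16, -0.19 and -0.54, also lower in each pair. The paired differences for snrpf to snrpe were -0.13, 0.01 and 0.32, with no common sign. For snrpd3 to the second SNRPD3 identifier, a ratio added after seeing the data and not tested, the log2 values were -0.26, -0.39 and -0.24 in siblings and 0.31, 0.24 and 0.29 in mettl16-/- embryos.

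**Figure D3:**
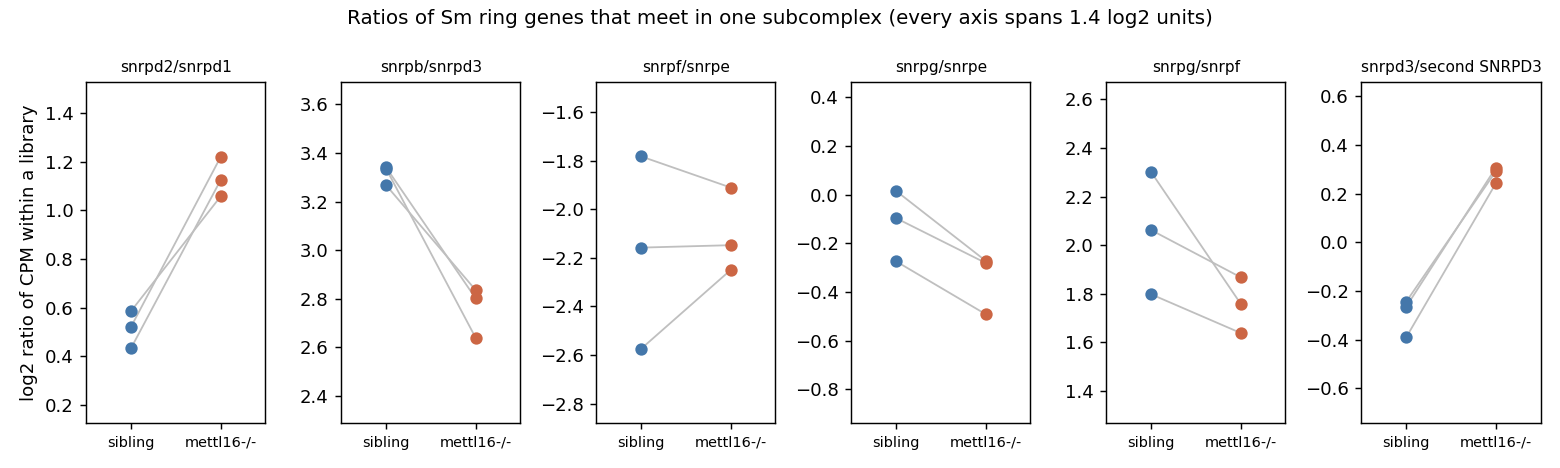
Log2 ratio of CPM within each library for genes of the same Sm subcomplex, and for snrpd3 to the second SNRPD3 identifier (blue: siblings; orange: mettl16-/- embryos; grey lines join the same replicate number; every axis spans the same range). The snrpd2 to snrpd1 and snrpb to snrpd3 ratios separate the groups, by 0.62 and -0.55 on average, and those within E-F-G overlap.

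The shares of the ring reads taken by each gene also differed between the groups. Of all reads on the 7 genes, snrpb took 53.8% at most and 49.7% at least in siblings, and 41.7% to 45.6% in mettl16-/- embryos. The share of snrpd1 was 10.1% to 10.3% in siblings and 8.07% to 8.73% in mettl16-/- embryos. Both shares were lower in every mettl16-/- library. Shares of 1 total move against each other, and both genes had a higher fitted level, so their shares fell because the other genes rose more. The shares of snrpd2, snrpd3 and snrpe were higher in every mettl16-/- library, at 17.9% to 18.8% against 13.9% to 15.4% for snrpd2, 6.31% to 6.68% against 4.92% to 5.31% for snrpd3 and 10.6% to 11.9% against 8.35% to 9.05% for snrpe. Those of snrpf and snrpg overlapped. These are shares of reads, which follow gene length, and are compared only between the groups. The sum over the 7 genes went from 257.6 ± 21.1 CPM (siblings) to 379.2 ± 40.7 CPM (mettl16-/-; SD, n = 3), a ratio of 1.47, and the ratio was 1.68 with snrpb left out of the sum.

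Genes that handle the ring were read from the same fit. There 21 of all 18487 genes tested were called higher, or 0.114%, and 2 were called lower. At such a share, 0 calls in a short list do not set it apart from other genes. Of the 9 genes of the SMN complex, which loads the ring onto snRNA, 4 were fitted higher and 5 lower, with a median log2 fold change of -0.076 and a range from -0.40 for gemin6 to 0.19 for smn1, and 0 passed. Of the 4 matched genes of arginine methylation, prmt5, the chaperone gene clns1a, riok1 and prmt7, 0 passed and the median was -0.091. Of 4 matched genes of snRNA export, capping and reimport, 0 passed. The largest value among them was 0.41 for snupn, which encodes the import adaptor of the trimethylated cap (edgeR, adjusted p = 1, and 0.0885 with the block). Over these 3 lists DESeq2 also called 0, and snupn alone reached 0.05 before adjustment, with an unadjusted p of 0.0281 in edgeR. Of the 5 genes of proteins particular to U1 or U2, 0 passed in edgeR without the block or in DESeq2, with 1 unadjusted p under 0.05 in edgeR. With the block snrpa1, which encodes the U2 A' protein, passed, where 0.649% of all genes were called higher. It went from 24.5 ± 4.09 CPM (siblings) to 34.3 ± 3.99 CPM (mettl16-/-; SD, n = 3; log2 difference 0.48, edgeR, adjusted p = 1, and 0.000588 with the block). Neither of lsm10 and lsm11, whose products take the places of SmD1 and SmD2 in the U7 particle of histone mRNA processing, passed in edgeR or DESeq2, and their unadjusted p-values in edgeR were 0.994 and 0.489.

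The LSm genes, whose products form the ring on U6 snRNA and the cytoplasmic decay ring, were read in the same way. Of 8 LSm genes tested, from 9 identifiers, 5 were fitted higher and 3 lower. At an adjusted p-value under 0.05 in edgeR, 2 were called higher and 0 lower, where 0.114% of all genes were called higher. The gene lsm7 had 19.0, 19.3 and 19.2 CPM in siblings and 40.2, 33.9 and 48.8 CPM in mettl16-/- embryos, or 1.096 higher on the log2 scale with a standard error of 0.137 (edgeR, adjusted p = 0.0174). The gene lsm8, whose product is found in the nuclear ring but not in the cytoplasmic one, had 9.02, 10.7 and 11.9 CPM in siblings and 21.3, 20.5 and 24.7 CPM in mettl16-/- embryos, or 1.072 higher on the log2 scale with a standard error of 0.145 (edgeR, adjusted p = 0.0269). Neither pair of groups overlapped, nor did that of lsm4, at 25.9 to 29.8 CPM in siblings and 30.4 to 32.8 CPM in mettl16-/- embryos. Thus 3 LSm genes were higher in every mettl16-/- library, a pattern seen in 3.46% of all genes tested. The other 6 tested genes of the list lay between -0.089 for lsm1 and 0.31 for lsm6. The median of the 8 was 0.16, against 0.88 for the Sm ring, and the difference between the lists was not tested. Without the block the 2 calls depended on single libraries, since between 0 and 2 LSm genes passed when 1 library was left out. The count was 0 without sibling replicate 1, 2 or 3 or mettl16-/- replicate 3, and 1 without mettl16-/- replicate 2. With the block both genes passed, with adjusted p-values from edgeR of 1.25e-08 for lsm7 and 1.64e-07 for lsm8, where 0.649% of all genes were called higher. In each blocked fit that left out both libraries of a number, 2 LSm genes passed. The share of all tested genes called higher there was 0.766%, 0.387% and 0.353% without replicates 1, 2 and 3.

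**Figure D4:**
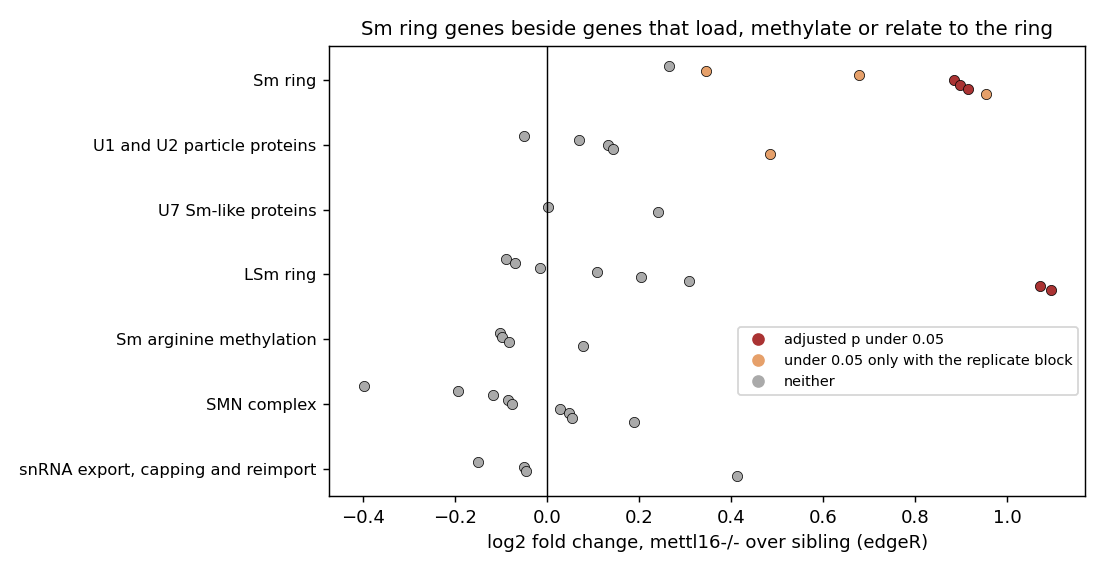
Log2 fold change, mettl16-/- over sibling, of each tested gene in the Sm ring and in 6 related lists (red: adjusted p-value under 0.05 in edgeR; orange: under 0.05 only with the replicate block; grey: neither). The Sm ring genes lie between 0.27 and 0.95, lsm7 and lsm8 lie at 1.096 and 1.072, and the SMN complex genes lie between -0.40 and 0.19.

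Profiles over the 6 libraries were compared with that of snrpd2, by the root mean square distance between log2 CPM centred on each gene's mean, among 17105 genes with a mean of at least 1 CPM. The genes outside the ring with the most similar profile were frg1, snu13a, ecd, sap30bp and sf3a2, at distances of 0.037, 0.044, 0.065, 0.075 and 0.096 log2 units. The ring genes snrpe and snrpd3 stood at places 3 and 4 of this order, with distances of 0.048 and 0.061. Further down came snrpg at place 24, snrpf at place 115, snrpb at place 152 and snrpd1 at place 259. The log2 fold changes of frg1, snu13a, ecd, sap30bp and sf3a2 were 0.88, 0.88, 0.90, 0.87 and 0.75. All but sf3a2 passed (edgeR, adjusted p = 0.0333, 0.0174, 0.0333, 0.0257 and 0.069). A profile close to that of snrpd2 carries a similar fold change, so these calls are not independent of the order. The distance is a description over libraries that include the compared groups, and no test was made on it.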

How the data were processed

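The authors filtered the reads with fastp 0.18.0, took out ribosomal reads with Bowtie2, aligned to GRCz11 with HISAT2 and deposited raw counts per gene. They used StringTie 1.3.1 for FPKM values, which were not used here. Which tool made the counts, and how it handled strand and multiply mapped reads, is not given in the sources used here. Identifiers were paired with symbols first from the study's table of differential expression and then from a table of gene names. The former settled which identifier was taken as snrpd3, so that member was not picked independently of its change. Tests ran on these counts under R 4.3.3, using edgeR 4.0.16 (TMM, filterByExpr, glmQLFit with robust=TRUE, glmQLFTest, Benjamini-Hochberg over all genes tested). A standard error is the absolute log2 fold change divided by the square root of F. The fit without the block was tested on simulated data, and the blocked fit was not. Same-numbered libraries correlated at 0.586, 0.312 and 0.518 in their deviations from group means, and others at -0.446 to -0.0362. Centring each group on its mean by itself pulls the others down when the same-numbered ones are above 0, so their contrast is not independent support. The shared replicate numbers of the labels were taken as pairs. The study's methods name no block, which was therefore an alternative beside DESeq2 1.42.0, other scalings and filters, and each library left out. The members and lists were chosen with earlier results of these data known. Named genes were the members, mettl16, list genes with an adjusted p-value under 0.05 and the 5 closest profiles to snrpd2. The lowest and highest of a list and genes called only with the block were named after their values were seen. No transcript lengths were used here, so the planned ranking of levels per length was not made.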

Additional observations from a re-analysis of the deposited data

How the results depend on the processing

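All 7 ring genes kept a higher fitted level in every alternative. The count of ring genes with an adjusted p-value under 0.05 was 3 in edgeR, 2 without TMM factors and 2 with robust=FALSE. It was 4 in edgeR with no filter, 5 in DESeq2 with or without a filter, and 6 with the replicate block. With DESeq2 size factors in edgeR, or a mean of at least 50 counts, it stayed at 3. Over all genes, in both directions, it was 23 of 18487 in edgeR, 15 of 18487 without TMM factors and 19 of 18487 with robust=FALSE. It was 28 of 23892 in edgeR with no filter, 60 of 18484 in DESeq2 on the same genes and 61 of 23855 in DESeq2 with no filter. With the replicate block it was 193 of 18487. It was 23 of 18487 with DESeq2 size factors in edgeR and 21 of 14011 with a mean of at least 50 counts. With the block 1 gene of the U1 and U2 proteins passed. Leaving out each library in turn gave 0 to 2 ring genes, 3 to 21 genes in all, 0 to 2 LSm genes and a ring median between 0.80 and 0.91. With the block and both libraries of a number left out, alternatives chosen after seeing the data, the counts were 5 to 6 ring genes and 232, 123 and 93 genes in all, the U1 and U2 count was 1, and the median was 0.79 to 0.92. The adjusted p-value of snrpd3 was 0.0668 without TMM factors and 0.0629 with robust=FALSE. That of snrpg was 0.0325 in edgeR with no filter and 0.000414 in DESeq2, which also called snrpf at 0.0297. The difference between the groups in the log2 ratio of snrpf to snrpe ranged from -0.13 to 0.26 when a library was left out. With both SNRPD3 identifiers summed, the difference in the log2 ratio of snrpb to snrpd3 was -0.26 instead of -0.55. The ranking of the genes per length was not run. Of the 7 genes, snrpf had the largest counting error, at 10.5% of the mean in siblings, where the SD between libraries was 24.2%.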
